A study of Mus musculus with 12 samples.

Results

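The exocrine pancreas genes of the mouse stomach were 37 genes that encode pancreatic digestive enzymes, the secretory proteins packed with them and the regulators of the acinar cell. A probe belonged to the group when the platform annotation, or the supplementary gene list of the study, gave it the symbol of 1 of these genes. The group had 40 of the 46643 probes of the array, which measured 33 of the 37 genes. No probe was found for Try5, Try10, Prss3 and Cela3a. Total RNA from the body of the stomach of each of 12 C57BL/6 mice was hybridized to its own Illumina Mouse-6 array. The Car9-/- mice, 6 in number, carried a targeted disruption of Car9, the gene of carbonic anhydrase IX, which was not limited to the stomach. They were 3 males aged 10, 10 and 12 months and 3 females aged 12, 10 and 12 months. The 6 wild-type controls carried no disruption and were 3 males aged 10, 12 and 12 months and 3 females aged 8, 12 and 12 months. The mice were otherwise untreated, and each array held 1 animal.

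Acinar cells of the pancreas make digestive enzymes, most of them as inactive zymogens, store them in zymogen granules and release them towards the duodenum. The transcription factor complex PTF1, which contains PTF1A and RBPJL, switches on these enzyme genes through a paired E-box and TC box in their promoters. The stomach has a comparable secretory cell, the chief cell, which shares the transcription factor BHLHA15 (MIST1) and much of the granule machinery with the acinar cell but secretes pepsinogen. The pancreas lies against the stomach in the mouse, surrounded by fat.

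Car9, the disrupted gene, had lower values in each Car9-/- mouse than in the lowest wild-type mouse at both of its probes. At probe 2340128 its log2 signal was 7.74 to 8.14 in Car9-/- mice and 9.42 to 9.79 in wild-type mice. Both probes were still detected on 12 of 12 arrays. All levels given here are log2 signals after quantile normalization between the arrays, on a scale that ended at 15.7, and a difference of 1 is a change by a factor of 2. A probe was tested when its signal stood above the negative controls of its array, at a detection p below 0.01, in 3 or more mice. This held for 20751 probes, and p-values from limma were adjusted over all of them. Median signals were 75.6 to 76.9 on the arrays of wild-type mice 4, 5 and 6 and 83.3 to 101.4 on the others. Among the exocrine genes 27 were tested, and 19 of these were detected on all 12 arrays. The remaining 6 were Prss2, Ctrc, Reg2, Cuzd1, Erp27 and Serpini2, of which the first 5 were detected in wild-type mice 4 and 6 and in no other mouse. Serpini2 was detected in none.

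The promoters of 30 of the 37 genes were found in the RefSeq table for GRCm38.p6, and the 250 bases before the start of each gene were searched for motifs that PTF1 and the basal transcription machinery are known to use. The motifs were the E-boxes CACCTG and CAGCTG and the TC box TTTCCC, each on both strands, and the TATA box TATAAA on the strand of the gene, with letters shared between motifs counted for each. CACCTG was present in 18 of the 30 promoters (60.0%), compared with 17.2% of all 32851 promoters in the table. For either E-box the share was 70.0% compared with 27.7%, for the TC box 9 of 30 compared with 21.9% and for TATAAA 33.3% compared with 7.59%. An E-box within 30 bases of a TC box was found in the promoters of Prss1, Ctrb1, Cela1 and Cel, which is 13.3% compared with 1.47%. These are matches of letters, and the genes were chosen as a group of known function. The first 4 promoters below belong to the genes whose values were lower in every Car9-/- mouse, and the fifth, of Ctrb1, to the gene with the greatest distance between wild-type mice 4 and 6 and the other 10 mice, 6.27 log2 units. Capitals mark the E-boxes, TC boxes and TATA boxes.
Prss1, chr6:41458680-41458929, plus strand: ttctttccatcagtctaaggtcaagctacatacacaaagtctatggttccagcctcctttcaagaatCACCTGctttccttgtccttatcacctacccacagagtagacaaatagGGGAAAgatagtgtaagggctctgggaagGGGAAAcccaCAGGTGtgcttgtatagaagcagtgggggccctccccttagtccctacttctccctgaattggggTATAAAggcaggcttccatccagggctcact
Try4, chr6:41302022-41302271, plus strand: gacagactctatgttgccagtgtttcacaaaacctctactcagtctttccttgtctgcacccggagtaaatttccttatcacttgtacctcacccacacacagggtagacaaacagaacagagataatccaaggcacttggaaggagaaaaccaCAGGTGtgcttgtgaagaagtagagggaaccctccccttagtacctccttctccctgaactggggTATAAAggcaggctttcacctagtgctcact
Amy2a5, chr3:113258700-113258949, minus strand: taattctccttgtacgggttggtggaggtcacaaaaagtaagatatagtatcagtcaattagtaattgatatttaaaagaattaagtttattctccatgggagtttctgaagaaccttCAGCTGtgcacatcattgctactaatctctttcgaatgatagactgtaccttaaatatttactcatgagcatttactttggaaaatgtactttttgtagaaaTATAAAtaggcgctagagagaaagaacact
Tmed6, chr8:107065645-107065894, minus strand: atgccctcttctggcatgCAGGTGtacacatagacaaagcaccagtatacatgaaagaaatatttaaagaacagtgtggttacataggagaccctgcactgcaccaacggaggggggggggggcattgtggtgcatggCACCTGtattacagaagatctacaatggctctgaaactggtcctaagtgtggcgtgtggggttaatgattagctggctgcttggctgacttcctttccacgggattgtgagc
Ctrb1, chr8:111691011-111691260, minus strand: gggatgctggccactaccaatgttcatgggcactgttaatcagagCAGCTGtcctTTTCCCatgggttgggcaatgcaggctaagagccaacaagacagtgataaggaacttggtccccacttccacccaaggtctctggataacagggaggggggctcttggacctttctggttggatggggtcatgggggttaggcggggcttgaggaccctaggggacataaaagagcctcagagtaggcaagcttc
Compared without gaps, Prss1 and Try4 had the same base at 86.0% of the last 100 positions before the start and at 55.6% of the 250. Both had an E-box that began 96 bases before the start and a TATA box that began 31 bases before it. Prss2, another trypsin of the same cluster on chromosome 6, shared 22.0% of the last 100 positions with Prss1 when counted from the start. The TATA box of Prss2 began 16 bases before its start, so these sequences were compared out of register. The share of 22.0% therefore does not show how alike they are. Tmed6 had 2 E-boxes and no match to the TC box or TATAAA.

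In Car9-/- stomach, 5 of the 27 tested genes were lower than in wild-type stomach, 0 were higher and 22 did not pass (limma, adjusted p under 0.05). The 5 were the trypsin genes Prss1 and Try4, the amylase gene Amy2a5, the disulfide isomerase gene Pdia2 and Tmed6. Over all tested probes 5.25% were lower and 5.34% were higher. The count of lower genes was 10 without wild-type mouse 3 or with array weights, 8 without Car9-/- mouse 5 or with sex and age as covariates, and 3 with a replicate block. At an unadjusted p under 0.05, 12 of the genes were lower and 0 higher. The share of all tested probes at this threshold was not counted, so the number of genes there is not read. The median log2 change of the 27 genes was -1.36, and that of all tested probes was -0.001. Negative values were found for 25 of the 27 genes, and for 50.1% of all tested probes. Fewer cells of a type and less RNA per cell cannot be told apart in these whole-tissue samples.

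Among the lower genes were 2 trypsins. Trypsin cleaves proteins after lysine and arginine and activates the other zymogens. Try4 had log2 signals of 7.39 to 10.56 in Car9-/- mice (median 9.35) and of 11.63 to 13.62 in wild-type mice (median 12.89). Its lowest wild-type mouse, number 3, stood 1.07 above the highest Car9-/- mouse. On the log2 scale Try4 changed by -3.60 (SE, the standard error of the fit, 0.55; n = 6 mice in each genotype; limma adjusted p = 0.00446), which is 12.1-fold lower. Prss1 ranged from 7.18 to 9.38 in Car9-/- mice (median 8.46) and from 10.46 to 12.80 in wild-type mice (median 11.78). The genotypes did not overlap, and wild-type mouse 3 was again the lowest of the wild-type mice. The log2 change of Prss1 was -3.40 (SE 0.49, limma adjusted p = 0.00338), or 10.5-fold lower. Another probe of Prss1, 3290162, behaved differently, with 6.30 to 7.02 in Car9-/- mice, 6.78 to 8.08 in 5 wild-type mice and 11.55 in wild-type mouse 6 (log2 change -1.27, limma adjusted p = 0.233). Trypsin genes are close copies of each other, and which transcripts each probe binds is not known from the files.

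Amy2a5, a pancreatic amylase that splits starch, was 9.91-fold lower in Car9-/- stomach. Its log2 signals were 10.36 to 13.58 in Car9-/- mice (median 11.21) and 13.78 to 15.22 in wild-type mice (median 15.13). The highest Car9-/- mouse, number 6, lay 0.19 below the lowest wild-type mouse, number 3, and the other 5 wild-type mice lay between 15.03 and 15.22, close to the top of the scale. The log2 change was -3.31 (SE 0.50, limma adjusted p = 0.00419). Amylase genes also have near-identical copies. Amy1, the salivary and liver amylase, had log2 signals of 6.87 to 7.41 in Car9-/- mice and 7.14 to 8.99 in wild-type mice (log2 change -0.77, adjusted p = 0.0814).

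Tmed6 and Pdia2 serve the early secretory pathway. TMED6 belongs to the p24 family, which sorts cargo between the endoplasmic reticulum and the Golgi, and PDIA2 is a pancreatic protein disulfide isomerase that helps secretory proteins to fold. Tmed6 had 11.29 to 13.67 in Car9-/- mice (median 12.49) and 13.83 to 14.91 in wild-type mice (median 14.74), with no overlap and a distance of 0.16 between the nearest mice. It was 4.09-fold lower (log2 change -2.03, SE 0.43, limma adjusted p = 0.0138). Pdia2 had 13.84 to 15.07 in Car9-/- mice (median 14.33) and 15.04 to 15.18 in wild-type mice (median 15.16). Car9-/- mouse 5 reached into the wild-type range, by 0.03. The log2 change of Pdia2 was -0.76 (SE 0.20, limma adjusted p = 0.0340), and its wild-type values lay near the top of the scale. This call was lost without any 1 of Car9-/- mice 1, 2 and 4 and wild-type mice 1, 2, 4, 5 and 6 (adjusted p from 0.0565 to 0.0773), and a replicate block ended it (0.0740) as well as the call of Tmed6 (0.0625).

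**Figure D1:**
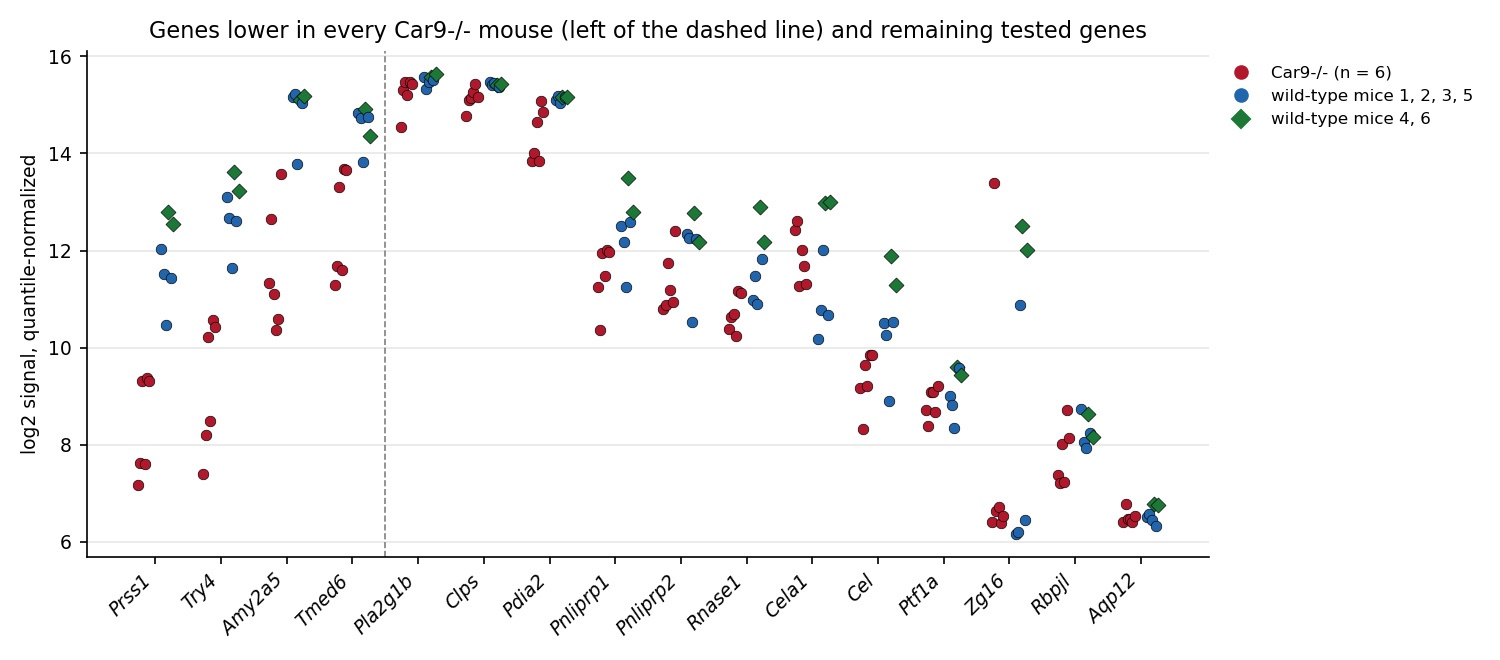
Quantile-normalized log2 signal (vertical axis) of 16 exocrine genes in each mouse: red circles, Car9-/- mice; blue circles, wild-type mice 1, 2, 3 and 5; green diamonds, wild-type mice 4 and 6. In the 4 genes left of the dashed line every Car9-/- mouse lies below every wild-type mouse; Zg16 stands high in Car9-/- mouse 2 (13.39) and in wild-type mice 3, 4 and 6.

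Sorted by their values over the 12 mice, the tested genes fell into 3 sets. In the first set, wild-type mice 4 and 6 had the highest values and stood at least 1 log2 unit above the other 10 mice. It held 11 of the 27 genes, compared with 0.13% of all tested probes. In the second set, the gene was detected in all 6 wild-type mice and was lower in every Car9-/- mouse than in any wild-type mouse. It held 4 genes, Prss1, Try4, Amy2a5 and Tmed6, compared with 2.19% of all tested probes. The remaining 12 genes met neither condition. The gene nearest the limit inside the first set was Reg1, with a distance of 1.59, and the nearest outside was Cel, with 0.77. For the second set these were Tmed6, with 0.16, and Pdia2, with -0.03. The sets were defined by the values and are a description. Wild-type mice 4 and 6 held the highest values, at whatever distance, in 17 of the 27 tested genes, compared with 3.47% of all tested probes. Among the 17, Cela3b and Gp2 met the detection limit only with these mice counted. The mice were singled out from earlier results of these data, so this count too is a description. With the 6 untested genes it was 23 of the 33 genes with a probe, and no share that includes untested probes was counted. In the second set wild-type mice 4 and 6 were the highest for Prss1 and Try4, by 0.52 and 0.11, and not for Amy2a5 and Tmed6.

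The first set held proteases, a lipase and granule proteins. Ctrb1, a chymotrypsinogen, had log2 signals of 14.99 and 14.90 in wild-type mice 4 and 6. In the other 4 wild-type mice it had 6.79 to 8.07, within the range of the Car9-/- mice, 6.60 to 8.62. Cpa1, a carboxypeptidase, had 13.23 and 12.31 in mice 4 and 6, 6.24 to 6.69 in the other wild-type mice and 6.45 to 7.0 in Car9-/- mice. Outside mice 4 and 6 the genotypes overlapped for both genes, and Cpa1 was detected in 2 Car9-/- mice and in 1 wild-type mouse beside mice 4 and 6. Ctrl, a chymotrypsin-like protease, had 12.24 and 11.59 in mice 4 and 6, and at most 6.92 elsewhere. Cela3b, an elastase, had 11.67 and 11.65 there, and at most 6.65 elsewhere. Its other probe was detected in these mice alone and was at least 2.83-fold higher in the mean of the wild-type mice, with the Car9-/- mice set at the lowest detected signal. Cpb1, another carboxypeptidase, Spink1, the inhibitor that guards against premature trypsin activity, and Gp2, the main glycoprotein of the granule membrane, followed the same course, with 11.45 and 11.28, 11.26 and 10.88, and 8.50 and 8.68 in mice 4 and 6. The log2 changes of these 7 genes over all mice were -0.87 (Gp2) to -2.33 (Ctrb1), with limma adjusted p of 0.195 to 0.323.

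In 3 further genes of the first set, wild-type mice 1, 2, 3 and 5 also tended to lie above the Car9-/- mice. Cela2a, an elastase, had 14.44 and 13.89 in wild-type mice 4 and 6, 7.84 to 9.19 in the other wild-type mice and 7.03 to 8.13 in Car9-/- mice. Only wild-type mouse 3 lay inside the Car9-/- range. Pnlip, pancreatic lipase, had 13.15 and 12.48 in mice 4 and 6, 9.65 in wild-type mouse 5 and 7.42 to 7.49 in wild-type mice 1 to 3. Its Car9-/- values were 6.38 to 7.68, so that Car9-/- mouse 6 alone reached the wild-type range. Sycn, syncollin of the granule membrane, had 12.01 and 11.63 in mice 4 and 6, 8.65 to 9.07 in the other wild-type mice and 7.65 to 8.83 in Car9-/- mice. None of the 3 passed over all mice (adjusted p from 0.0930 for Cela2a to 0.104 for Sycn, limma). Reg1, which encodes a secreted lectin-like protein of the regenerating family, went the other way outside these mice. It had 11.82 and 11.78 in mice 4 and 6, 7.69 to 8.36 in the other wild-type mice and 8.84 to 10.19 in Car9-/- mice. All 6 Car9-/- mice lay above wild-type mice 1, 2, 3 and 5 and below mice 4 and 6.

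**Figure D2:**
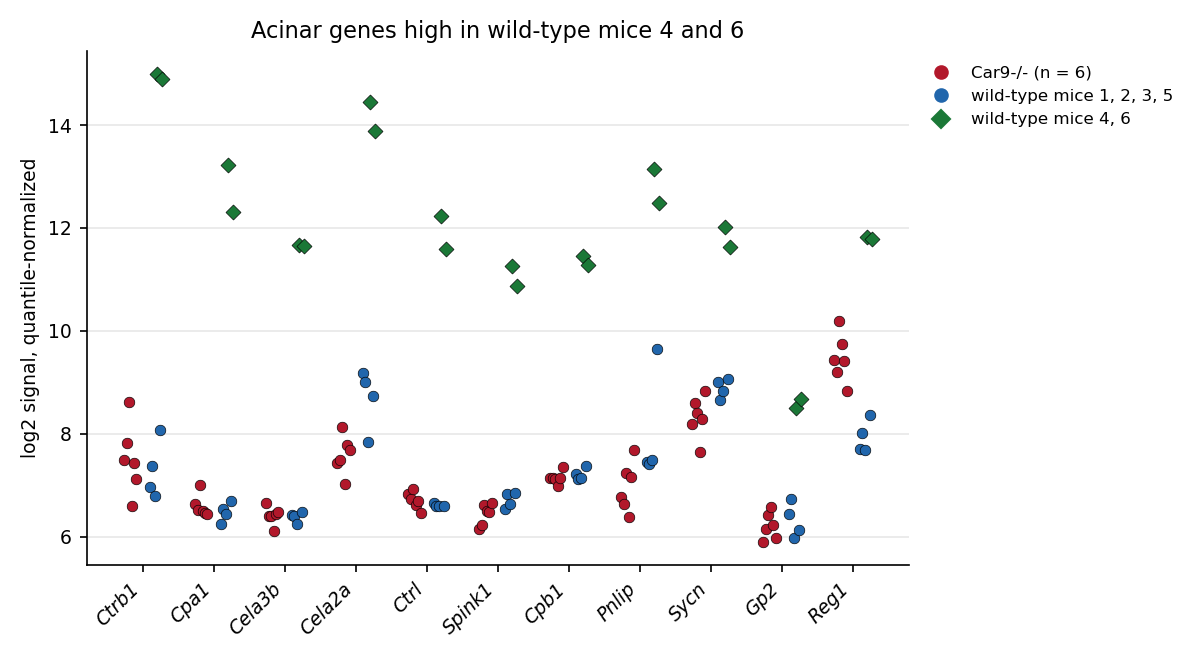
Quantile-normalized log2 signal (vertical axis) of the 11 genes that were highest in wild-type mice 4 and 6: red circles, Car9-/- mice; blue circles, wild-type mice 1, 2, 3 and 5; green diamonds, wild-type mice 4 and 6. The diamonds of Ctrb1 lie near 15 while its other values do not exceed 8.62; in Reg1 the Car9-/- mice lie above the blue circles.

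Without wild-type mice 4 and 6, 4 of the 27 genes were lower in Car9-/- stomach and 1 was higher (limma, n = 6 and 4 mice), compared with 2.44% and 2.2% of all tested probes. The lower genes were Prss1, Try4, Amy2a5 and Cela2a, of which the first 3 had also passed with all mice. Prss1 had a log2 change of -2.96 (adjusted p = 0.0190), Try4 of -3.29 (0.0264), Amy2a5 of -3.20 (0.0249) and Cela2a of -1.10 (0.0444). The higher gene was Reg1 (log2 change 1.53, SE 0.23, limma adjusted p = 0.0141), compared with 0.24 (SE 0.75, adjusted p = 0.863) with all mice. Reg1 and Cela2a belong to the first set, which was defined by high values in the 2 mice left out. Leaving these mice out lowers the wild-type mean and spread of both genes by construction, so their 2 calls are a description. Tmed6 and Pdia2 kept log2 changes of -2.0 and -0.74 but did not pass (adjusted p = 0.0542 and 0.110 from limma). Ctrb1, Cpa1 and Ctrl had 0.10 to 0.22, where they had -1.67 to -2.33 with all mice. Outside mice 4 and 6, Cpa1 was detected in 2 Car9-/- mice and 1 wild-type mouse, and Ctrl in 5 and 2. Both lay near the negative controls there, so a change near 0 does not show equal levels. The probe of Cela3b was above the negative controls in none of wild-type mice 1, 2, 3 and 5 and in 1 Car9-/- mouse, so its change without mice 4 and 6 is not read. The median of the 27 genes was -0.28, compared with -0.002 over all tested probes. Of the 27 genes 19 were negative, and the share of negative probes was not counted in this setting. Cela3b, Gp2 and Aqp12 met the detection limit only with wild-type mice 4 and 6 counted. The median and the count of negative genes therefore include genes at the level of the negative controls.

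**Figure D3:**
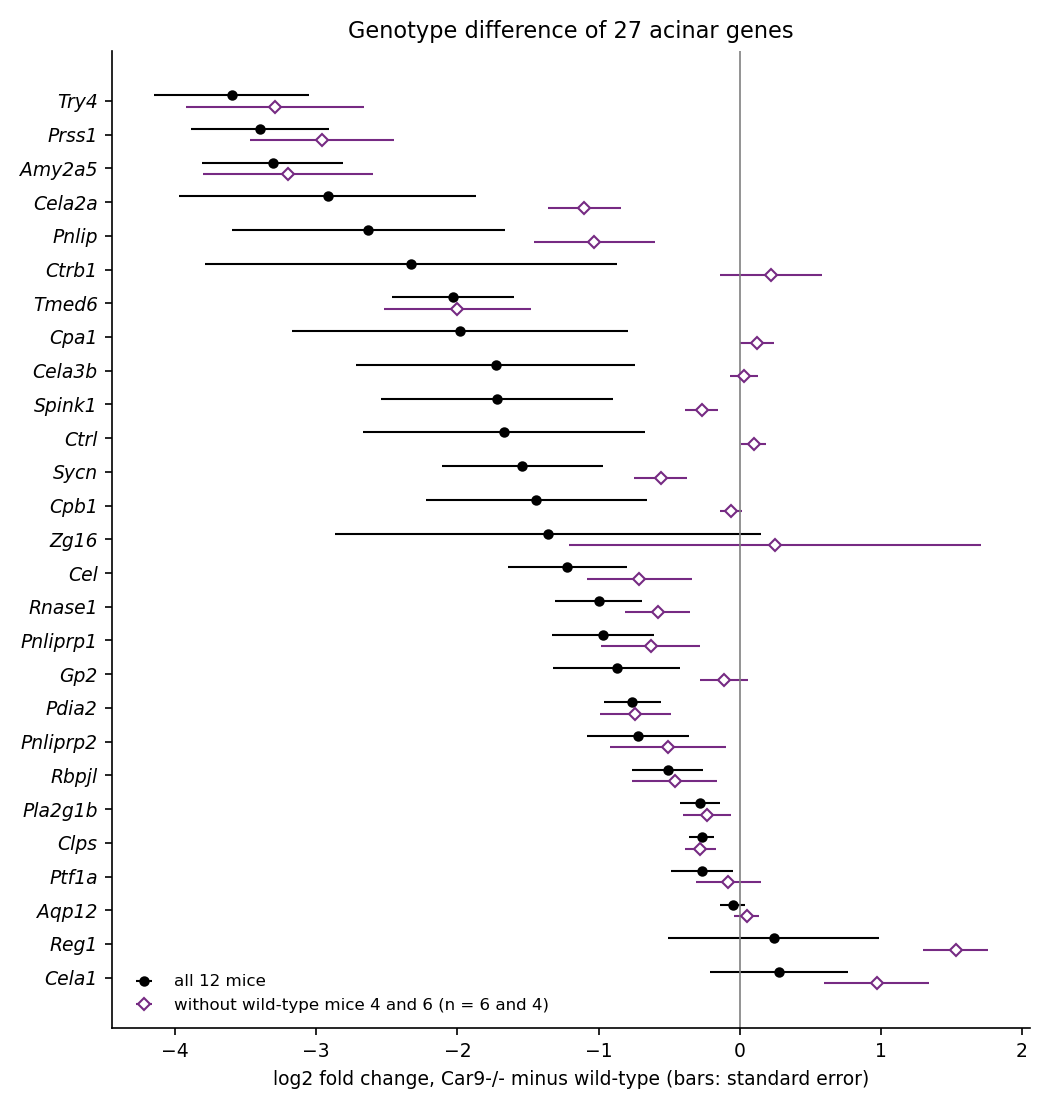
Log2 change, Car9-/- minus wild-type (horizontal axis), of the 27 tested genes with its SE, for all 12 mice (black circles) and without wild-type mice 4 and 6 (open purple diamonds). The values of Amy2a5, Tmed6 and Pdia2 hardly move, and those of Prss1 and Try4 go from -3.40 to -2.96 and from -3.60 to -3.29. Those of Ctrb1, Cpa1 and Ctrl go to near 0 and that of Reg1 rises from 0.24 to 1.53.

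Most lipid-digesting enzymes and the acinar regulators belonged to neither set. Clps, the colipase that anchors pancreatic lipase, and Pla2g1b, a phospholipase A2, were bright in every mouse, at 14.78 to 15.48 and 14.54 to 15.64. Car9-/- mouse 1 was the lowest of all mice for both genes. At this level a change may be compressed, so their log2 changes of -0.27 and -0.28 do not show that the RNA differed little. Pnliprp1 and Pnliprp2, lipase-related proteins, had -0.97 and -0.72, and Cel, the bile salt-dependent lipase, had -1.22 (adjusted p = 0.102, 0.221 and 0.0853 from limma). In each of these 3 genes wild-type mouse 3, the youngest mouse at 8 months, was the lowest of the wild-type mice, with 11.25, 10.52 and 8.90. Rnase1, the pancreatic ribonuclease, had 10.24 to 11.17 in Car9-/- mice and 10.89 to 12.89 in wild-type mice (log2 change -1.0, adjusted p = 0.0595). Ptf1a, which encodes the defining factor of PTF1, was detected in all mice, at 8.38 to 9.21 in Car9-/- mice and 8.35 to 9.60 in wild-type mice. The ranges overlapped almost completely (log2 change -0.27, SE 0.22, limma adjusted p = 0.442). Cela1, an elastase also known outside the pancreas, had 11.26 to 12.60 in Car9-/- mice and 10.18 to 12.01 in wild-type mice other than 4 and 6, which lay higher (log2 change 0.28, limma adjusted p = 0.753). Zg16, a lectin of zymogen granules that goblet cells also make, was high in 4 mice: Car9-/- mouse 2 at 13.39 and wild-type mice 3, 4 and 6 at 10.88, 12.50 and 12.02. In the other 8 mice it had 6.17 to 6.71. Aqp12, a water channel of acinar cells, lay between 6.32 and 6.78 in all mice and was detected in 3 of them.

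Male and female Car9-/- mice lay apart in several exocrine genes. The interaction of genotype and sex, which asks whether the genotype difference is the same in males and females, passed for Tmed6 among the 27 genes (limma, adjusted over all tested probes), compared with 0.0145% of all tested probes. Tmed6 had 11.29, 11.68 and 11.59 in the Car9-/- males and 13.31, 13.67 and 13.65 in the Car9-/- females. Wild-type males had 14.83, 14.73 and 14.91, and wild-type females had 13.83, 14.74 and 14.36. The Car9-/- males were thus the lowest of the 4 groups, with no overlap with any other, and the Car9-/- females lay between them and the wild-type mice. The genotype difference was 2.53 log2 units smaller in females (SE 0.29, limma adjusted p = 0.0317). The call ended when any 1 of Car9-/- mice 1, 2, 4, 5 and 6 and of wild-type mice 1, 2, 4 and 6 was left out (adjusted p from 0.0781 to 0.120), as did leaving out wild-type mice 4 and 6 together (0.305), with 2.42 to 2.61 log2 units in each case. At an unadjusted p under 0.05 the interaction was found for 7 of the 27 genes, compared with 9.25% of all tested probes, and in all 7 the difference was smaller in females. Beside Tmed6 these were Pdia2 (interaction 0.99, limma adjusted p = 0.0872), Try4 (3.02, 0.147), Rbpjl (1.38, 0.172), Prss1 (2.5, 0.226), Pnliprp2 (1.56, 0.474) and Pnliprp1 (1.46, 0.503).

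The following contrasts within a sex or a genotype were added after the data were seen. Among males, 8 of the 27 genes were lower in Car9-/- mice (limma, n = 3 mice per group), compared with 5.68% of all tested probes, and 0 were higher, also at an unadjusted p under 0.05. They were Prss1, Try4, Pnliprp1, Cel, Amy2a5, Pdia2, Rbpjl and Tmed6. The calls of Pnliprp1 and Cel both ended without wild-type mouse 4, the male that was high in the first set. They also both ended without any 1 of Car9-/- mice 1, 2 and 4 and wild-type mouse 1. The other calls among males held whichever single mouse was left out. Among females 0 were lower, compared with 0.00964% of all tested probes, and 5 were lower at an unadjusted p under 0.05. For the latter the share of all tested probes was not counted. In males Try4 had a log2 change of -5.11 (SE 0.40, limma adjusted p = 9.8e-05), Prss1 of -4.65 (0.45, 3.45e-04) and Tmed6 of -3.30 (0.20, 4.2e-05). In females these were -2.09, -2.15 and -0.77 (adjusted p = 0.149, 0.172 and 0.281). Amy2a5 differed less between the sexes, with -3.71 in males and -2.91 in females (interaction 0.80, SE 1.06, adjusted p = 0.861).

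Within the Car9-/- mice, every female lay above every male in 11 of the 27 genes, compared with 6.69% of all tested probes. Females were higher than males for Tmed6 (log2 difference 2.02, SE 0.20, limma adjusted p = 0.00507) and Pdia2 (0.96, SE 0.11, adjusted p = 0.00899), while over all tested probes 0.0289% were higher. No gene was lower in females, also at an unadjusted p under 0.05. Pdia2 had 13.84, 14.00 and 13.84 in Car9-/- males and 14.65, 15.07 and 14.85 in Car9-/- females. Prss1 had 7.18, 7.62 and 7.61 in these males and 9.31, 9.38 and 9.32 in these females, a distance of 1.69 between the nearest mice (log2 difference 1.87, SE 0.45, adjusted p = 0.341). Rbpjl, the acinar partner of PTF1A, had 7.38, 7.22 and 7.24 in the males and 8.02, 8.72 and 8.13 in the females (log2 difference 1.01, adjusted p = 0.232), and the Car9-/- females lay within the wild-type range of 7.93 to 8.73. Among wild-type mice 0 of the 27 genes differed between the sexes, and 1 had an unadjusted p under 0.05. Over both genotypes together, sex gave 0 of the 27 genes, with 1 at an unadjusted p under 0.05, and 0.0241% of all tested probes. The Car9-/- males were aged 10, 10 and 12 months and the Car9-/- females 12, 10 and 12 months, and the part of age in these differences was not tested.

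**Figure D4:**
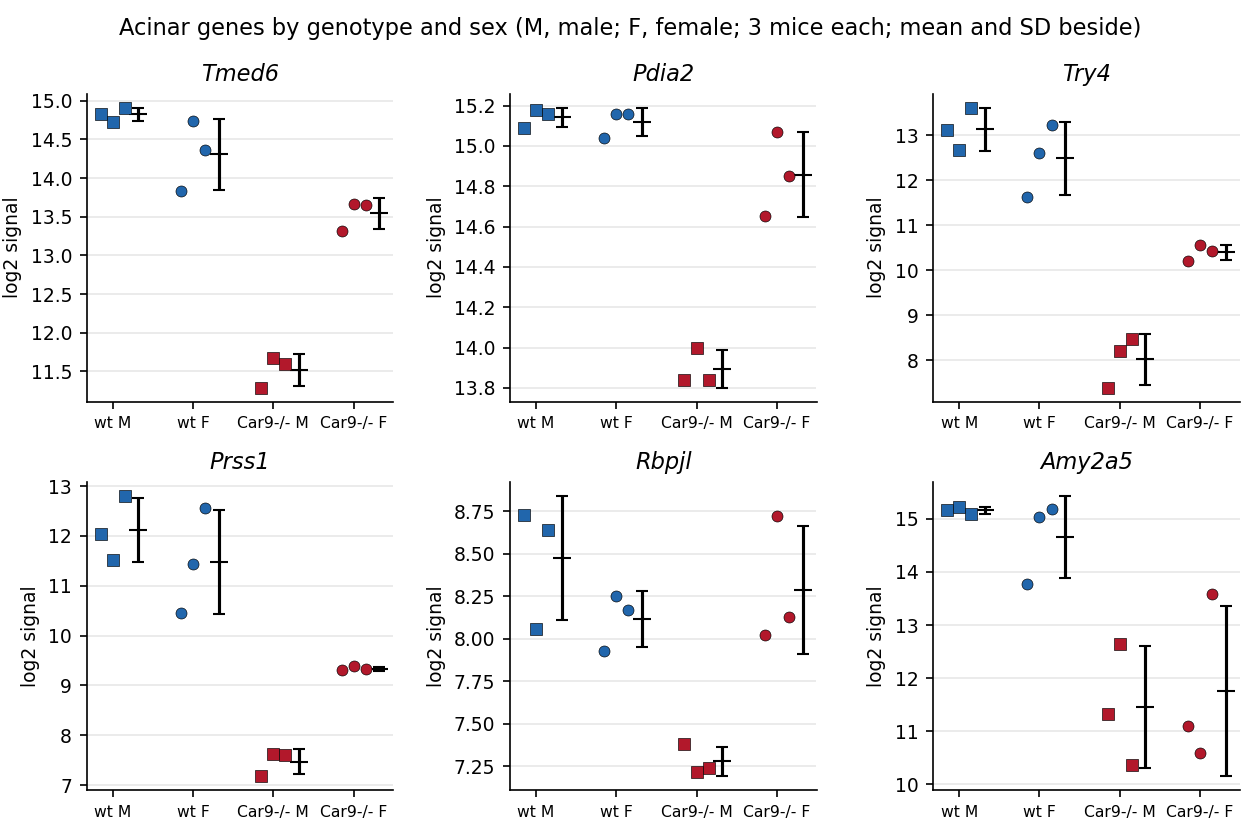
Quantile-normalized log2 signal (vertical axes, each with its own range) of 6 exocrine genes in wild-type (blue) and Car9-/- (red) males (squares) and females (circles), 3 mice per group, with mean and SD beside each. In Tmed6, Pdia2, Try4, Prss1 and Rbpjl the 3 Car9-/- males lie below the 3 Car9-/- females; in Amy2a5 the sexes overlap.

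Markers of neighbouring tissues were read in the same mice. Of 10 islet genes 9 had a probe and 6 were tested, and their mean level was 10.67 in wild-type mouse 6 and 7.46 to 7.99 in the other 11 mice. Wild-type mouse 6 had log2 signals of 10.57 for Ins1, 11.45 for Ins2 and 11.01 for Gcg, which encode insulin and glucagon. Wild-type mouse 4 had 6.89, 6.61 and 6.76, while the mean of the 11 genes of the first set was 12.25 there and 11.92 in mouse 6. Sst, which encodes somatostatin and is also made by endocrine cells of the stomach, was the 1 islet gene that passed. It had 11.65 to 12.79 in Car9-/- mice and 12.58 to 13.57 in wild-type mice (log2 change -0.98, limma adjusted p = 0.0141). Of 8 adipocyte genes 4 were tested and 0 passed, and their mean level was 10.47 and 10.34 in wild-type mice 4 and 6, 7.10 to 9.36 in the other wild-type mice and 7.29 to 8.4 in Car9-/- mice. Mice 4 and 6 held the 2 highest values in 3 of the 4 tested adipocyte genes. Adipoq had 11.77 and 11.14 in mice 4 and 6 and at most 9.26 elsewhere, while Retn and Fabp4 were detected in no mouse. Lipe, the remaining tested gene, was not raised, with 7.0 and 7.2 in mice 4 and 6 and 7.04 to 7.56 elsewhere. The 6 squamous forestomach genes, which mark the non-glandular part of the stomach, had mean levels of 6.16 to 6.28 in wild-type mice 4, 5 and 6, of 6.72 and 6.57 in Car9-/- mice 1 and 6, and of 10.42 to 12.83 in the other mice. The part of these tissues in the exocrine differences was not tested. Alb of the liver, Fabp1, Fabp2 and Sis of the small intestine and 4 of the 5 salivary gland markers were detected in no mouse. Of the 5 liver markers 2 were tested and Ttr was lower, and of the 9 small intestine markers 3 were tested and Vil1 was higher in Car9-/- mice. Without wild-type mice 4 and 6 the calls of Sst, Ttr and Vil1 ended (adjusted p = 0.0627, 0.0716 and 0.138 from limma).

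Of 8 chief cell genes 5 were tested and 2 were lower in Car9-/- stomach, Bhlha15 (limma adjusted p = 0.0392) and the granule GTPase gene Rab26 (0.0121). Without wild-type mice 4 and 6 these were 0.0914 and 0.0447, so that the call of Bhlha15 ended. The mean level of the 5 was 10.93 to 11.83 in Car9-/- mice and 11.51 to 12.15 in wild-type mice. The 2 parietal cell genes and 5 pit and neck cell genes had adjusted p of 0.140 to 0.927 (limma). Bhlha15 had 8.44, 8.28 and 8.18 in Car9-/- males and 9.43, 10.55 and 9.87 in Car9-/- females, compared with 9.87 to 11.35 in wild-type mice. The males were again below the females (interaction 2.47, limma adjusted p = 0.103). Every Car9-/- female lay above every Car9-/- male in 3 of the 5 tested chief cell genes, compared with 6.69% of all tested probes. Bhlha15 and Rab26 were among these. An unadjusted interaction p under 0.05 (limma) was found for 3 of the 5, compared with 9.25% of all tested probes, and 0 passed. Pgc, which encodes pepsinogen C, showed no such order, at 14.83 to 15.13 in Car9-/- mice, near the top of the scale.

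**Figure D5:**
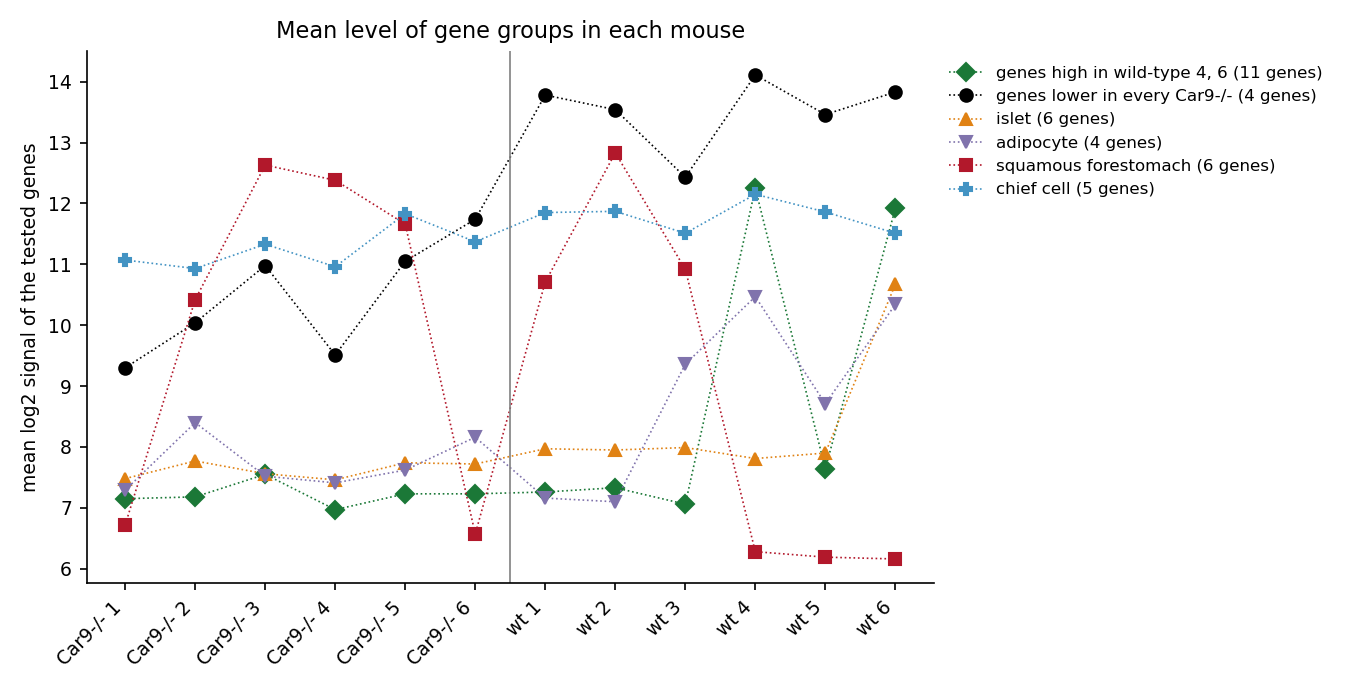
Mean log2 signal (vertical axis) of the tested genes of 6 groups in each of the 12 mice (horizontal axis; wt, wild-type); dotted lines join the values of a group for the eye only. The exocrine genes of the first set (green diamonds) and the adipocyte genes (purple triangles) are highest in wild-type mice 4 and 6, the islet genes (orange triangles) in wild-type mouse 6 alone, and the 4 genes lower in every Car9-/- mouse (black circles) are above 12 in each wild-type mouse.

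Beside the members, 26 further genes known from acinar cells were examined, of which 24 had a probe and 17 were tested. Bhlha15 and Rab26 were also among the chief cell genes above, so the results of these lists overlap. In Car9-/- stomach 6 were lower, 1 was higher and 10 did not pass (limma), compared with 5.25% lower and 5.34% higher over all tested probes. The lower genes were Slc38a5, an amino acid transporter, Bhlha15, Rab26, the growth factor gene Egf, Fkbp11, a folding enzyme of the endoplasmic reticulum, and Cldn10, a claudin of tight junctions. The higher gene was Dmbt1, which encodes a secreted scavenger receptor protein (log2 change 2.51, adjusted p = 0.00563). The median log2 change of the 17 genes was -0.25, compared with -0.001 over all tested probes, and was 0.01 without wild-type mice 4 and 6. Without these mice 5 of the 6 lower genes still passed, all but Bhlha15, as did Dmbt1. Slc38a5 resembled Tmed6 in its sex difference, with 8.72, 8.87 and 8.83 in Car9-/- males and 9.82, 10.12 and 9.94 in Car9-/- females, and wild-type mice at 10.33 to 12.02 (interaction 2.23, limma adjusted p = 0.0317). Of the 17 genes, 9 had an unadjusted interaction p under 0.05, compared with 9.25% of all tested probes, and 1 passed, compared with 0.0145%.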

How the data were processed

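Stomach RNA of 6 Car9-/- and 6 wild-type mice was measured, 1 array per mouse, grouped by the genotype label. The authors deposited the BeadStudio signal intensity of each probe on a linear scale, without normalization or background subtraction, with a detection p-value against negative controls. Log2 values that the authors deposited after quantile normalization in Chipster were used here as an alternative. The deposited intensities were log2-transformed and quantile-normalized between arrays, and differed from the authors' log2 values by at most 0.0224. Testing was limited to probes detected (p below 0.01) in 3 or more mice, with limma 3.58.1 in R 4.3.3 (lmFit, eBayes, Benjamini-Hochberg, threshold 0.05). Gene symbols came from the platform annotation, which gives 1 symbol for 32794 probes, several for 55 and none for 13794.

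A gene was represented by its probe of the study's supplementary list, or otherwise by its tested probe of highest mean. Every gene of the group was accounted for, and values per mouse were given for genes that passed and for up to 8 with the largest spread, for Car9, for the marker lists and for the 8 genes most like each of the 2 value-defined sets. Other values given per mouse were chosen after they were seen. The level of a list is the mean of its tested genes. The members, lists and sets were chosen with earlier results of these data known. The values of 1 gene of these lists are not reported here. Promoters came from RefSeq (GRCm38.p6). Alternatives included the authors' values, neqc (offset 16), median scaling, other probe filters and probe choices, sex and age as covariates, a replicate block, array weights, an intensity trend, the study's SD filter and fold threshold, and each mouse or wild-type mice 4 and 6 left out. The method was tested on simulated data. The number of mice limits the precision. Whether the replicate numbers pair the mice is not known. Mice of the same number were of the same sex. Their deviations from the genotype means had a correlation above 0.1 for 1 of 6 numbers (0.501, number 6), which does not settle it. Plots came from matplotlib 3.10.9 (python 3.11.15).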

Additional observations from a re-analysis of the deposited data

Results flagged for a closer look

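Of 54 groups of 6 mice examined, 6 had a mouse far from the other 5 in 1 of the exocrine genes, by the ratio of its gap to the whole range of the group, and chance gives about 1 in 20 groups. In Car9-/- mice these were Zg16 in mouse 2 (ratio 0.954, log2 signal 13.39 where the other 5 had 6.39 to 6.71), Pla2g1b in mouse 1 (0.709, 14.54 where the others had 15.21 to 15.48), Aqp12 in mouse 2 (0.644) and Cpa1 in mouse 3 (0.642, 7.0 where the others had 6.45 to 6.64). In wild-type mice they were Amy2a5 in mouse 3 (0.872, 13.78 where the others had 15.03 to 15.22) and Pnliprp2 in mouse 3 (0.732, 10.52 where the others had 12.17 to 12.77). Wild-type mouse 3, at 8 months the youngest, was also the lowest wild-type mouse for Prss1, Try4, Tmed6, Cel and Pnliprp1. With 1 mouse of that age, age and mouse cannot be told apart. The genotype difference of Tmed6 was not the same in the sexes, by the interaction term of limma (2.53 log2 units, adjusted p = 0.0317).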

How the results depend on the processing

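The number of exocrine genes lower in Car9-/- mice was 5 of 27 with all mice and stayed at 4 to 6 with neqc, the authors' values, median scaling, an intensity trend, sex as a covariate, and other filters and probe choices. It rose to 10 with array weights and to 8 with sex and age as covariates, and was 14 of the 15 members left by the study's SD filter when a 1.4-fold change alone was asked for. With the replicate block it was 3 (Prss1, Try4 and Amy2a5), and the block changed no other call than those of Tmed6 (adjusted p = 0.0625) and Pdia2 (0.0740). Leaving out 1 mouse gave 4 to 10, the highest without wild-type mouse 3, and 8 without Car9-/- mouse 5. The count of higher genes was 0, and 1 without wild-type mice 4 and 6. This was Reg1, whose set was defined by the values of these mice. Prss1, Try4 and Amy2a5 passed under every alternative run on all genes. Without wild-type mice 4 and 6 the sign turned for Ctrb1 (0.22), Ctrl (0.10), Cela3b (0.03), Cpa1 (0.12), Zg16 (0.25) and Aqp12 (0.05), none of which had passed. Of these, Ctrl, Cela3b, Cpa1 and Aqp12 lay near the negative controls in the remaining mice, so their sign is not read. Leaving out 1 wild-type mouse or Car9-/- mouse turned Cela1 (range -0.01, without wild-type mouse 1, to 0.56, without wild-type mouse 6) and Reg1 (-0.06, without wild-type mouse 1 or 3, to 0.76, without wild-type mouse 4).

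The count of genes whose genotype difference differed by sex was 1, was 0 to 2 without 1 mouse and 0 without wild-type mice 4 and 6. The interaction of Tmed6 stayed between 2.29 and 2.75 when 1 mouse was left out, and passed without Car9-/- mouse 3 or wild-type mouse 3 or 5 but not without any of the other 9 mice singly. Among males 6 to 10 genes were lower without 1 mouse, and 2, Cela1 and Reg1, were higher without wild-type mice 4 and 6. The count of genes higher in females within Car9-/- mice was 2, was 1 to 3 without 1 mouse and was 1, Tmed6, without wild-type mice 4 and 6. Counts for females and for the sex effect over both genotypes were 0 in every alternative run. The slide as a block was not run, since the columns name no slide. Signals near the top of the scale (Clps, Pla2g1b, Pdia2 and Amy2a5 in wild-type mice) and near the negative controls (Cela3b, Gp2, Aqp12) limit what a small log2 difference shows. Outside wild-type mice 4 and 6 this also held for Cpa1, Ctrl and Spink1.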

Other observations

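Outside the exocrine genes, the named genes whose values were most like the mean of the 11 genes high in wild-type mice 4 and 6 were Hp, Orm1, Cd1d1, Cxcl13, Abcd2, Ildr2, Hhex and Wt1, with Pearson's r of 0.956 (Hp) to 0.922 (Wt1) over the 12 mice. Hp and Orm1 encode the plasma proteins haptoglobin and orosomucoid, and Wt1 encodes a transcription factor known from the mesothelium. These correlations rest on 2 mice. Those most like the mean of Prss1, Try4, Amy2a5 and Tmed6 were Pla2r1, Cyp7b1, Ces1e, Ttc7b, Ndrg2, H2ac21, Kank1 and Gstm2, with r of 0.979 (Pla2r1) to 0.966 (Gstm2). All 8 were lower in Car9-/- mice (limma), with log2 changes of -0.66 (Gstm2 and Kank1) to -1.59 (H2ac21). The points of each correlation share the arrays and the genotype groups, and the genes were picked for their likeness, so the values are a description.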
